A study of Mus musculus with 2 samples.

Results

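The genes described here encode the protein subunits of the mitochondrial respiratory chain and of ATP synthase. They were chosen by symbol: the mitochondrially encoded subunits of NADH dehydrogenase, cytochrome b, cytochrome c oxidase and ATP synthase, and the nuclear genes whose symbols begin with Nduf (subunit letters a, b, c, s and v), Uqcr, Cox4 to Cox8 or Atp5, with at least 20 unique molecular identifiers (UMIs) over both libraries. Of 32285 features 94 matched by symbol and 92 passed the minimum, 79 of them nuclear-encoded and 13 mitochondrially encoded. By complex the nuclear genes numbered 36 in complex I, 8 in complex III, 18 in complex IV and 17 in complex V, and the mitochondrial genes 7, 1, 3 and 2. Cox8b (14 UMIs) and Cox8c (2 UMIs) fell below the minimum, and Cox7b2 (26 UMIs), Cox7a1 (137), mt-Atp8 (181) and Ndufa4l2 (208) were the members nearest above it. Ndufa4 and Ndufa4l2, named as complex I subunits, were counted with complex IV, where the Ndufa4 protein is known to sit. The symbols leave out complex II, Cyc1 of complex III and Ndufab1 of complex I, which are given with the other lists.

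RNA was measured cell by cell in mouse embryonic brain tissue with the 10x Genomics Chromium 3′ v3 chemistry, which counts the polyadenylated end of each transcript by UMI. The neural tube defect (NTD) library came from embryos whose mothers were kept on low-folate food and were injected into the peritoneum with methotrexate, a folate antagonist, at 1.5 mg/kg on gestational day 7.5. These embryos were described as small and delayed, with malformed hindbrain and open spine. The control library carries the label normal saline, its embryos were described as having closed neural tubes, and the diet of the control mothers is not stated. Each group had 1 library, and the stage, number, sex and strain of its embryos were stated in no source used here. No difference below therefore has a replicate check: no test or p-value was computed, and every interval is an exact 95% interval that covers counting error only.

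Complexes I, III and IV pass electrons from NADH to oxygen and pump protons across the inner mitochondrial membrane, and complex V, the ATP synthase, uses the returning protons to make ATP. Each of these complexes is built from products of both genomes. The mitochondrial chromosome is transcribed inside the organelle as long RNAs that are cut into messengers, and it encodes membrane-embedded core subunits. The remaining core subunits and all accessory subunits are made in the cytosol and imported. The neural plate and early neural tube are known to draw much of their energy from glycolysis, with oxidative metabolism gaining weight as organ formation proceeds.

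The libraries held 18572 control and 19056 NTD barcodes, with medians of 2234 and 2456 UMIs, and 15813 control and 16151 NTD cells were kept after removal of likely doublets. The lowest barcode totals differed, at 1027 UMIs for control and 1589 for NTD, and the libraries shared 105 barcodes. Mitochondrially encoded transcripts were a small part of the RNA throughout: the highest share in any barcode was 5.15% in the control and 2.58% in the NTD library, and the medians were 0.385% and 0.238%. The label brain was checked against markers. Neural progenitor-like, neuroblast-like and neuron-like cells were present in both libraries, but the control library also held 150 liver or yolk sac-like and 86 skeletal muscle-like cells against 3 and 3 in the NTD library, and a mesenchyme-like cluster with the limb genes Tbx4, Tbx5 and Hoxa10 among its leading genes held 2084 control and 54 NTD cells.

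The sequences below mark the regulatory and structural features that the results touch. Nuclear respiratory genes are known targets of the factors NRF-1 and of ETS-family factors such as GABP, so the promoters of 5 members that hold such motifs are shown, each from 250 bases before to 30 bases after the RefSeq transcription start (GRCm38.p6, on the gene's strand). Atp5k on the minus strand of chr5:108434370-108434649 and Cox6a1 on the minus strand of chr5:115348929-115349208 hold both motifs, and they are the member of complex V with the highest and the member of complex IV with the lowest NTD-to-control ratio among the more abundant members. Cox8a (chr19:7217587-7217866, minus strand) and Uqcrh (chr4:116075041-116075320, minus strand) hold the ETS motif, and Ndufa11 (chr17:56717512-56717791, plus strand) the NRF-1 motif. Capitals mark the palindromic NRF-1 core of 10 letters and CTTCCGG, the reverse complement of the ETS core CCGGAAG.
Atp5k: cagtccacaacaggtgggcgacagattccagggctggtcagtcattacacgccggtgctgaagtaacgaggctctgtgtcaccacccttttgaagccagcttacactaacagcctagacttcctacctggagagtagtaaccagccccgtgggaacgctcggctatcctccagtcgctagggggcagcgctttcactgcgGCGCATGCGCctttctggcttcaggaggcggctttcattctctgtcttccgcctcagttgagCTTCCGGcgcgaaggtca
Cox6a1: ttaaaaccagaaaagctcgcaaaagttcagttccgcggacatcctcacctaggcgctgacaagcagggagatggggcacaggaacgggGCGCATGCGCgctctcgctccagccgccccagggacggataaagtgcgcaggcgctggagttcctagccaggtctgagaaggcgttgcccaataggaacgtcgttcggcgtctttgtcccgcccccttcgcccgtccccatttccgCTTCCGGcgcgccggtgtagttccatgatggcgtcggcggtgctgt
Cox8a: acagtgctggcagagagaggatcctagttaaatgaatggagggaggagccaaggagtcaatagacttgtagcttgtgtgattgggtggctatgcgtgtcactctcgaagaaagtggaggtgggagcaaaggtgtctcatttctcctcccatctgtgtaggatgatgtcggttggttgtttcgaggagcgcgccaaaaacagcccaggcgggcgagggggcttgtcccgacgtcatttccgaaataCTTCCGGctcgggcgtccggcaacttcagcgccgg
Uqcrh: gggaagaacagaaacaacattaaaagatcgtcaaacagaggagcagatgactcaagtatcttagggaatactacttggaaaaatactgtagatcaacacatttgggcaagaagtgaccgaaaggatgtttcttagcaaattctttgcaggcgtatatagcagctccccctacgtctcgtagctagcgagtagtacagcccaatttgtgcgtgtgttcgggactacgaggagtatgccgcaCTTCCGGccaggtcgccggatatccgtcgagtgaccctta
Ndufa11: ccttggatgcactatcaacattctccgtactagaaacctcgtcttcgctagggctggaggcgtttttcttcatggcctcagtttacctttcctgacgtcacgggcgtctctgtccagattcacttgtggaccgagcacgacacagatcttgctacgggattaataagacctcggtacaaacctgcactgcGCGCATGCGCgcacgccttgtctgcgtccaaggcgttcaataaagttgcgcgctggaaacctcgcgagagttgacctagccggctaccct

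Both strands of the RefSeq promoter table (250 bases before to 50 after the start) were searched for 3 motifs. The ETS core ends and the YY1 core begins with AAG, so 1 stretch can match both. An entry was found for 65 of the 79 nuclear members. The NRF-1 core marked above was present in 5 members (7.69%) against 1.07% of all 27025 genes with a promoter in the table, CCGGAAG (ETS) in 15 (23.1%) against 9.93%, and the YY1 core (YY1 is a zinc finger factor) in 5 (7.69%) against 0.995%. In neural progenitor-like cells the median log2 ratio was 0.31 with and 0.49 without the NRF-1 motif, 0.51 and 0.46 for ETS, and 0.46 and 0.48 for YY1. A match describes the letters in these windows and is not a bound site.

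Some neighbouring members on the mitochondrial chromosome share bases, which bears on how 3′ counts can be assigned to them. The GENCODE M21 (GRCm38) transcripts of the upstream genes in the 2 longest overlaps on 1 strand are shown with the shared bases in capitals: mt-Atp8 (chrM:7766-7969, 204 bases) shares 43 bases with mt-Atp6 (chrM:7927-8607), and mt-Nd4l (chrM:9877-10173, 297 bases) shares 7 bases with mt-Nd4 (chrM:10167-11544).
mt-Atp8: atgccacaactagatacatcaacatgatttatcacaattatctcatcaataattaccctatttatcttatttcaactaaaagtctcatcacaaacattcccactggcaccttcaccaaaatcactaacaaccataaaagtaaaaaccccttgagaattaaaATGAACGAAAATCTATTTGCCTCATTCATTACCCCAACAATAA
mt-Nd4l: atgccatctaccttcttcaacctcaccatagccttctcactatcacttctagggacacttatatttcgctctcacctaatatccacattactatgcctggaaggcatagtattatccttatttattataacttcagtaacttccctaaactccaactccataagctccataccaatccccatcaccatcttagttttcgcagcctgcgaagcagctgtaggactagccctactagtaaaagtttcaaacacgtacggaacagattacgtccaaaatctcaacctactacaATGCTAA

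The upstream gene of each pair gave few UMIs: mt-Atp8 had 75 control and 69 NTD UMIs in the kept cells against 26183 and 23466 for mt-Atp6, and mt-Nd4l had 300 and 226 against 11774 and 8094 for mt-Nd4. mt-Nd6 lies on the other strand and overlaps mt-Nd5, and was likewise sparse, with 328 and 454 UMIs. The values of these 3 genes are therefore the least certain of the mitochondrial set. Why they gave few UMIs was not tested, and how the counting split shared bases is not stated in the labels or headers.

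Over all kept cells the 2 genomes' products stood on opposite sides. Levels are given as CPM, the UMIs of a gene per 1000000 UMIs of the cells summed, and ratios as log2 of NTD over control with 0.5 counts added to each sum. Nuclear-encoded members made up 1.26% of control UMIs and 1.80% of NTD UMIs, and mitochondrially encoded members 0.390% and 0.267%. Put as a ratio, there were 31.0 mitochondrially encoded UMIs for every 100 nuclear-encoded ones in the control and 14.9 in the NTD library, a 2.09-fold difference. Of the 78 nuclear members with at least 20 UMIs in the kept cells, 66 were at least 25% higher in NTD (a log2 ratio of 0.32 or more), 0 were at least 20% lower (−0.32 or less) and 12 lay between, with a median log2 ratio of 0.57. These margins define higher and lower in all counts below. Of all 19796 genes so measured 12.3% were higher and 42.8% lower by these margins, with a median of −0.25. Of the 13 mitochondrial members 0 were higher, 10 were lower and 3 lay between, with a median of −0.58. Trimmed mean of M-values (TMM) scaling moves the median of all genes up by 0.24, and under it the member medians were 0.81 and −0.34.

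Neural progenitor-like cells, 2314 in the control and 4671 in the NTD library, are described in most detail because they are the neural class with the most cells. Their make-up differed between the libraries: cluster 7 held 1136 control and 628 NTD cells, and cluster 2 held 550 and 2020. In the whole class nuclear-encoded members took 1.24% of control and 1.68% of NTD UMIs, and mitochondrially encoded members 0.385% and 0.234%. Per 100 nuclear-encoded UMIs the cells held 31.0 mitochondrially encoded UMIs in the control and 13.9 in the NTD library. Of 78 nuclear members 62 were at least 25% higher in NTD and 0 lower, with a median log2 ratio of 0.48, beside 12.6% higher and 31.2% lower among 15725 measured genes and a median of −0.16. Of 13 mitochondrial members 11 were at least 20% lower and 0 higher, with a median of −0.78. The counting interval lay above 0 for 69 nuclear members, below 0 for 1 and across 0 for 8. For the mitochondrial members it lay below 0 for 11 and across 0 for 2, mt-Nd6 and mt-Atp8. Intervals were not counted in this way over all measured genes, so no background share stands beside these counts. They describe counting error only, which is small for abundant genes.

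**Figure D1:**
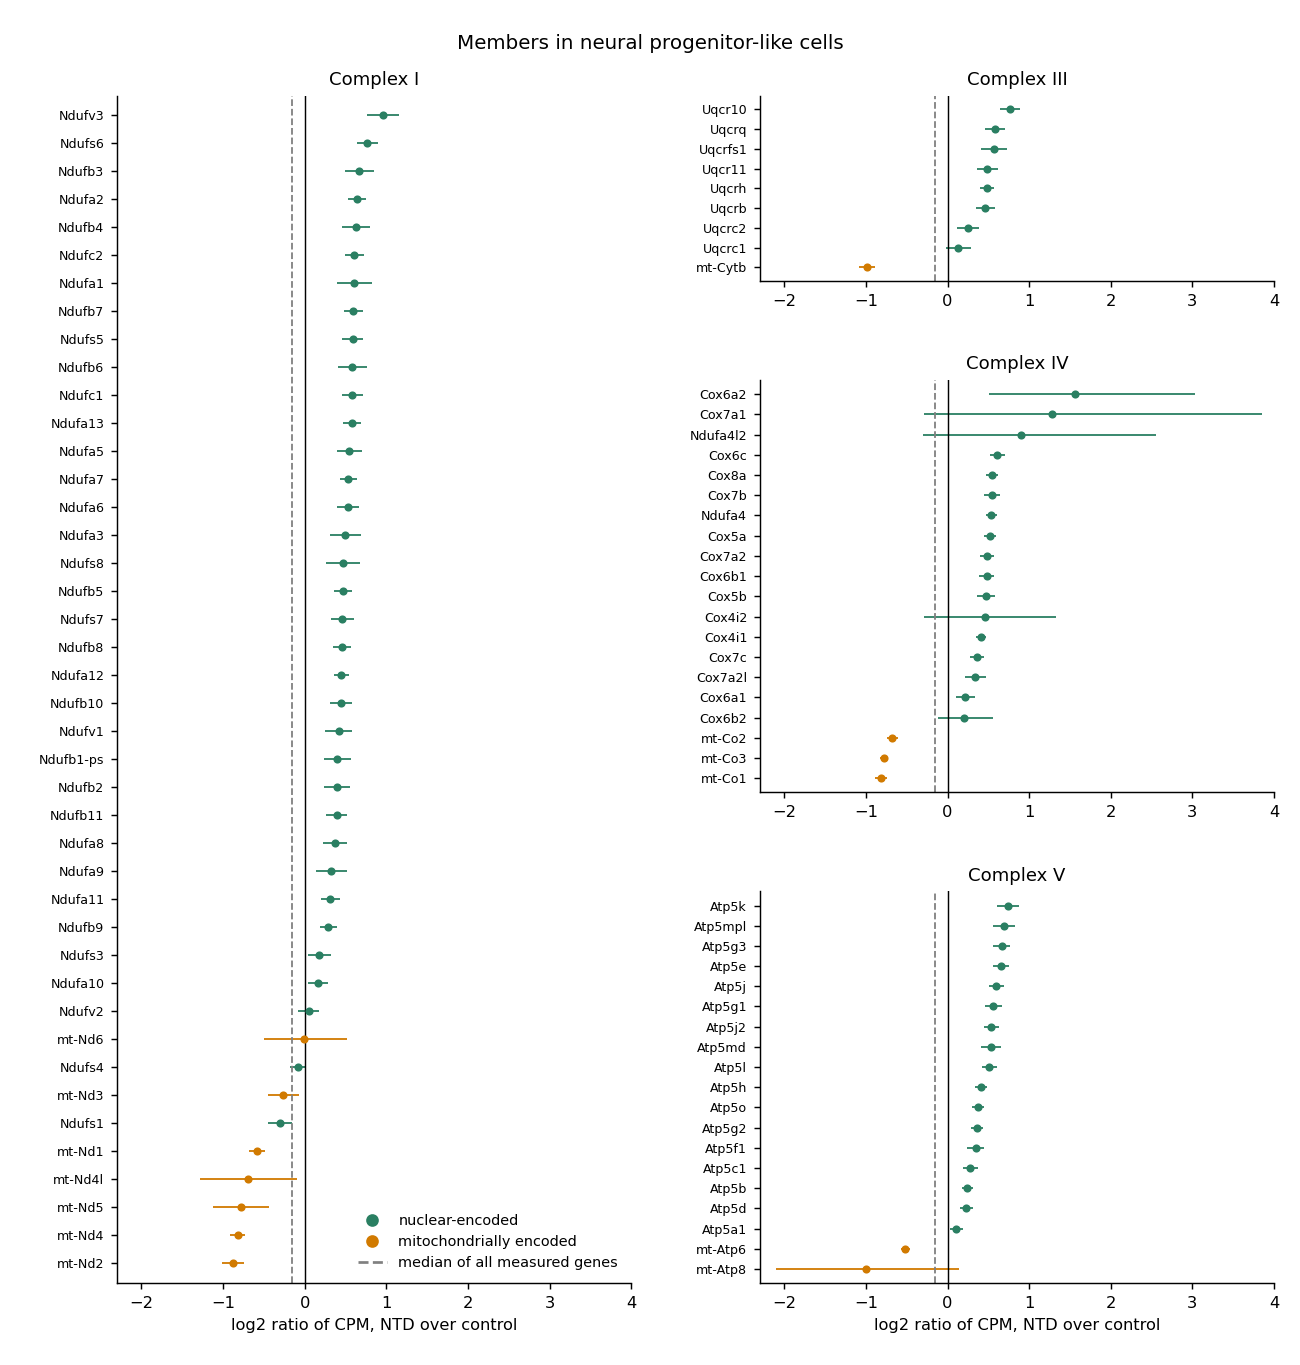
Log2 ratio of CPM, NTD over control, for the measured members in neural progenitor-like cells (1 complex I member is not drawn), with bars for the 95% counting interval, green for nuclear-encoded and orange for mitochondrially encoded genes, and a dashed line at the median of all measured genes (−0.16). In each of the 4 complexes the mitochondrially encoded members lie at or below 0 and nearly all nuclear-encoded members above it, with Ndufs1 and Ndufs4 the nuclear exceptions.

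The mitochondrially encoded members of complex I form its membrane arm, the part that moves protons. In neural progenitor-like cells mt-Nd1 measured 238 CPM in the control and 159 in the NTD library (log2 −0.58, interval −0.68 to −0.48), and mt-Nd4 285 and 161 CPM (−0.82). mt-Nd2 measured 138 and 74.8 CPM (−0.88) and mt-Nd5 22.3 and 12.98 CPM (−0.78). All 4 were lower in the NTD library by more than counting error. mt-Nd3 differed less, at 59.7 and 49.8 CPM (−0.26, −0.45 to −0.07), and mt-Nd4l measured 7.55 and 4.67 CPM (−0.70). mt-Nd6, the only member read from the other strand, measured 8.62 and 8.61 CPM (−0.01, −0.50 to 0.51), and 0.14 on the log2 scale under TMM scaling.

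mt-Cytb, the cytochrome b that carries electrons within complex III, had the lowest ratio of the well-counted mitochondrial genes, at 282 control and 143 NTD CPM (−0.99, −1.08 to −0.89). The 3 mitochondrial subunits of complex IV form its catalytic core. mt-Co1 measured 434 and 247 CPM (−0.81), mt-Co2 612 and 383 (−0.67) and mt-Co3 1114 and 648 (−0.78). The ratios of these 3 lay between −0.81 and −0.67. mt-Atp6, the proton channel subunit of complex V, measured 646 and 452 CPM (−0.51, −0.57 to −0.46), and mt-Atp8 2.52 and 1.26 CPM from 14 and 17 UMIs (−1.005, −2.10 to 0.14).

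The mitochondrial genes thus did not all differ by the same factor, although they share precursor RNAs. Among mitochondrially encoded UMIs of neural progenitor-like cells, the mt-Cytb share was 7.33% (6.99 to 7.69) in the control and 6.08% (5.82 to 6.35) in the NTD library. The mt-Atp6 share was 16.8% (16.3 to 17.3) and 19.3% (18.8 to 19.7), and the mt-Nd3 share 1.55% (1.39 to 1.73) and 2.12% (1.97 to 2.29). For these 3 genes the intervals of the 2 libraries do not overlap. The same held for mt-Co3 (29.0% and 27.6%) and the sparse mt-Nd6 (0.224% and 0.367%). For the rest of the 13 mitochondrial genes the intervals overlap. Over all kept cells the mt-Cytb share was 7.51% and 6.16%, and that of mt-Atp6 16.7% and 19.4%.

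Nuclear-encoded complex I members had a median log2 ratio of 0.46 in neural progenitor-like cells, with 28 of 36 at least 25% higher in NTD. The 3 highest among members of at least 50 CPM were Ndufv3, a small accessory subunit of the NADH-oxidising module, at 45.1 and 87.6 CPM (0.96, 0.76 to 1.16), Ndufs6, at 107 and 182 CPM (0.77, 0.64 to 0.90), and Ndufb3, at 60.01 and 95.3 CPM (0.67, 0.49 to 0.85). The 3 lowest were Ndufs1, the largest core subunit, which carries iron-sulphur clusters, at 103 and 83.8 CPM (−0.30, −0.45 to −0.16), Ndufs4, an accessory subunit whose loss causes Leigh-like disease in mice, at 210 and 199 CPM (−0.08, −0.18 to 0.02), and the core subunit Ndufv2, at 128 and 132 CPM (0.05, −0.08 to 0.18). Ndufs1 was thus the nuclear member whose interval lay below 0 in these cells. Relative to the scaling its direction is less certain: over all kept cells its log2 ratio was −0.24 by totals, 0.00 by TMM and 0.01 against genes of like genomic span. Ndufs4 had a ratio of −0.08 by totals, 0.07 by TMM and 0.18 against genes of like genomic span in neural progenitor-like cells.

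Complex III passes electrons from ubiquinol to cytochrome c. Its 8 nuclear members had a median of 0.48, with 6 of 8 at least 25% higher. Uqcr10, a small accessory subunit, measured 125 and 211 CPM (0.76, 0.64 to 0.88), Uqcrq, the subunit beside cytochrome b, 133 and 198 CPM (0.58), and Uqcrfs1, the Rieske iron-sulphur protein, 74.2 and 110 CPM (0.57). The lowest were the large core proteins Uqcrc1, at 82.8 and 90.7 CPM (0.13, −0.02 to 0.29), and Uqcrc2, at 111 and 132 CPM (0.25), with Uqcrb at 135 and 185 CPM (0.46). By role, grouped after their values had been seen, the 2 core proteins and the Rieske protein had a median of 0.25 with 1 of 3 higher, and the 5 other accessory subunits a median of 0.49 with 5 of 5 higher. The accessory genes were shorter, with a median span of 3.83 kb against 12.99 kb.

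Complex IV, cytochrome c oxidase, had a nuclear median of 0.49, with 15 of its 17 measured nuclear members at least 25% higher. Cox6c measured 227 and 348 CPM (0.61, 0.52 to 0.70), Cox8a 337 and 493 CPM (0.55) and Cox7b 209 and 304 CPM (0.54), all small single-helix subunits around the catalytic core. The lowest of those with at least 50 CPM were Cox6a1, at 141 and 164 CPM (0.22, 0.10 to 0.34), Cox7a2l, a factor that links complexes III and IV into supercomplexes, at 120 and 152 CPM (0.34), and Cox7c, at 283 and 364 CPM (0.36). Cox4i1, the regulatory subunit that binds nucleotides, measured 522 and 693 CPM (0.41), and Ndufa4 398 and 576 CPM (0.53). Even the lowest of these had an interval above 0, while mt-Co1, mt-Co2 and mt-Co3 of the same complex lay below 0.

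Complex V had a nuclear median of 0.51, with 13 of 17 members at least 25% higher. Atp5k, the e subunit that helps ATP synthase form dimers, measured 98.8 and 165 CPM (0.74, 0.60 to 0.88), Atp5mpl, a small membrane subunit, 106 and 171 CPM (0.69), and Atp5g3, which encodes the c subunit of the rotor ring, 167 and 265 CPM (0.66). The lowest were Atp5a1 and Atp5b, which encode the alpha and beta subunits of the catalytic head, at 329 and 354 CPM (0.11, 0.03 to 0.19) and at 391 and 463 CPM (0.24), and Atp5d, the delta subunit of the central stalk, at 303 and 356 CPM (0.23). By role, grouped after the values had been seen, the 5 genes of the F1 part had a median of 0.24 with 1 of 5 higher (Atp5e, at 0.66), the 4 genes of the peripheral stalk a median of 0.39 with 4 of 4, the 3 c-subunit genes 0.56 with 3 of 3, and the 5 small membrane subunits 0.54 with 5 of 5. The median spans of these 4 groups were close, at 7.19, 7.12, 6.82 and 7.18 kb.

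Several complex IV subunits exist as pairs of isoforms, and the shares of the pair's UMIs are given here (3′ counts, not divided by length). Cox6b2, an isoform known from testis, made up 9.04% of Cox6b1 and Cox6b2 UMIs in the control and 6.46% in the NTD library. Its share was highest in erythroid-like cells, at 26.0% (50 UMIs, 19.99 to 32.9) in the control and 17.1% (37 UMIs, 12.3 to 22.7) in the NTD library. In macrophage or microglia-like cells it was 22.4% (28 UMIs, 15.4 to 30.7) and 1.96% (2 UMIs, 0.238 to 6.90), and in neural progenitor-like cells 7.18% and 6.05%. The level of Cox6b2 itself was not lower over all kept cells, at 23.3 and 25.1 CPM (log2 0.10, −0.02 to 0.23), while Cox6b1 measured 235 and 363 CPM (0.63). In neural progenitor-like cells Cox6b2 likewise measured 18.5 and 21.4 CPM (0.21, −0.12 to 0.55), and in macrophage or microglia-like cells it was lower, at 59.8 and 7.98 CPM (−2.61, −6.02 to −0.92).

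Cox6a2, the heart and skeletal muscle isoform of Cox6a, went from 1.50% (83 UMIs, 1.20 to 1.86) of Cox6a1 and Cox6a2 UMIs in the control to 2.62% (215 UMIs, 2.29 to 2.99) in the NTD library. In cardiac muscle-like cells its share was 9.09% (3 UMIs) and 22.7% (10 UMIs), with overlapping intervals. Cox4i2, known from lung and from hypoxia, stayed under 1% of Cox4i1 and Cox4i2 UMIs in both libraries, at 0.709% and 0.603%. The remaining tissue-restricted forms were scarce: over all kept cells Cox7a1 had 29 and 83 UMIs, Ndufa4l2, known to be induced by hypoxia, 58 and 110, and Cox7b2 13 and 6. Over all kept cells Cox6b2 was thus the restricted form with the highest share of its pair in both libraries. The 3 genes for the identical c subunit of ATP synthase kept the same order in both libraries, with shares of 28.6% and 28.9% for Atp5g1, 46.9% and 43.9% for Atp5g2 and 24.5% and 27.1% for Atp5g3.

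The members were next compared class by class. In the 10 classes with at least 50 cells in both libraries, the summed nuclear-encoded share was higher in NTD in 10 of 10, with log2 ratios between 0.38 in erythroid-like and 0.65 in neuron-like cells. The summed mitochondrially encoded share was lower in 7 and higher in 3. Its ratio was lowest in the neural classes, at 0.388% and 0.228% in neuroblast or intermediate progenitor-like cells (log2 −0.77, −0.83 to −0.71), 0.349% and 0.211% in neuron-like cells (−0.73) and −0.72 in neural progenitor-like cells. Mesenchyme or fibroblast-like (−0.36), neural crest or Schwann precursor-like (−0.35), epithelium-like (−0.22) and endothelial-like cells (−0.11) followed. For the endothelial-like cells that is close to the median of all genes in the class, −0.12. In the epithelium-like cells, too, more of all measured genes were lower (38.2%) than higher (17.7%) by the margins. The same held in each of the other classes compared.

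The 3 classes with a higher mitochondrially encoded share in NTD were cardiac muscle-like cells, at 0.353% in 56 control and 0.428% in 56 NTD cells (0.28, 0.14 to 0.42), macrophage or microglia-like cells, at 0.373% in 167 and 0.427% in 78 cells (0.20, 0.08 to 0.31), and erythroid-like cells, at 0.601% in 221 and 0.637% in 153 cells (0.08, 0.01 to 0.16). In the macrophage or microglia-like cells the median share per cell was 0.375% in the control and 0.360% in NTD; the summed share weights cells by their UMIs. Without the 10% of cells of highest UMI total, a setting added after the data were seen, the ratio was 0.22 (0.06 to 0.38) in cardiac muscle-like, 0.09 (−0.04 to 0.21) in macrophage or microglia-like and −0.03 (−0.12 to 0.06) in erythroid-like cells, so that 1 of the 3 intervals lay above 0. Whether the direction differs between classes beyond the spread between samples could not be tested with 1 library a group. The mitochondrially encoded UMIs per 100 nuclear-encoded ones, which lay between 31.0 and 38.8 in the control classes, ranged from 13.01 in neuron-like to 31.7 in erythroid-like NTD cells. In each of the 10 classes this figure was lower in NTD, by 1.22-fold in erythroid-like cells and 2.59-fold in neuron-like cells at the extremes.

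**Figure D2:**
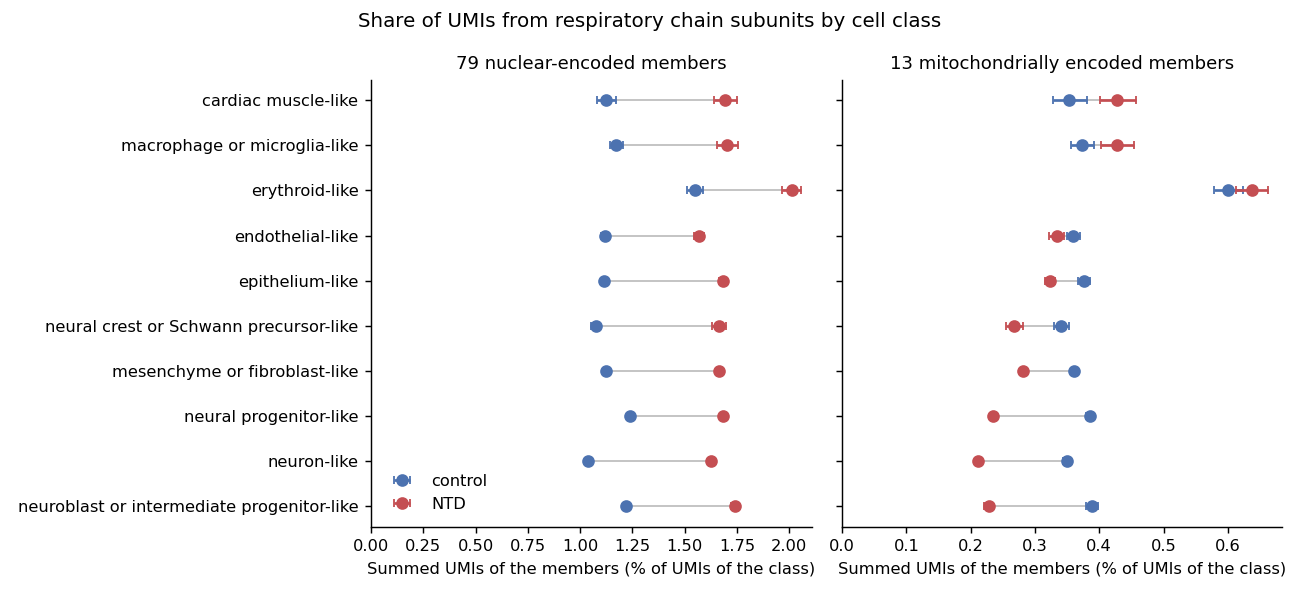
Summed UMIs of the 79 nuclear-encoded members (left) and the 13 mitochondrially encoded members (right) as a percentage of all UMIs of each cell class, blue for control and red for NTD, with 95% counting intervals. The nuclear-encoded share is higher in NTD in all 10 classes, and the mitochondrially encoded share is lower in 7 and higher in the cardiac muscle-like, macrophage or microglia-like and erythroid-like cells.

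Other RNAs differed between the libraries in the same classes. In the same 10 classes the summed cytosolic ribosomal protein genes were higher in NTD in 10 (log2 0.55 to 0.78), the nuclear-retained RNA Malat1 was lower in 10 (−0.87 to −0.30), and haemoglobin transcripts, which can enter droplets as free RNA, were higher in 10 (0.03 to 0.64). Their part in the result was not tested. The classes are also not made of the same clusters in both libraries. The mesenchyme or fibroblast-like cells lay mostly in clusters 4 and 6 in the control and in cluster 0 in the NTD library. For the neural progenitor-like cells the largest cluster was cluster 7 in the control and cluster 2 in the NTD library. Within single clusters with at least 50 cells in both libraries, the nuclear-encoded share was higher in NTD in 23 of 23, and the mitochondrially encoded share lower in 18 and higher in 5. In these 23 clusters the ribosomal protein genes were higher in 23 and Malat1 was lower in 23. Haemoglobin transcripts were less uniform, higher in 17 and lower in 6 (log2 −0.38 to 0.64).

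Counted gene by gene, the neuron-like cells had 68 of 77 nuclear members at least 25% higher and 1 lower, against 18.2% and 34.9% of the genes measured in that class, and 10 of 12 mitochondrial members lower and 1 higher. Neuroblast or intermediate progenitor-like cells had 60 of 74 nuclear members higher and 0 lower (background 17.7% and 35.1%) and 9 of 10 mitochondrial members lower. Mesenchyme or fibroblast-like cells had 68 of 78 nuclear members higher and 0 lower (background 15.5% and 33.6%), and 8 of 13 mitochondrial members lower and 1 higher. In erythroid-like cells 40 of 74 nuclear members were higher and 3 lower (background 18.5% and 45.6%), and 2 of 10 mitochondrial members were higher and 2 lower. In cardiac muscle-like cells 52 of 71 nuclear members were higher and 1 lower (background 27% and 33.7%), and 5 of 9 mitochondrial members were higher and 1 lower.

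The counts in the remaining classes were as follows. Neural crest or Schwann precursor-like cells had 65 of 74 nuclear members higher and 0 lower (background 19.8% and 37%) and 6 of 10 mitochondrial members lower. Epithelium-like cells had 64 of 75 nuclear members higher and 1 lower (background 17.7% and 38.2%) and 5 of 12 mitochondrial members lower. In endothelial-like cells 53 of 74 nuclear members were higher and 0 lower (background 18.7% and 32.3%), with 2 of 11 mitochondrial members higher and 2 lower. In macrophage or microglia-like cells 54 of 74 nuclear members were higher and 2 lower (background 22.8% and 38.9%), with 3 of 10 mitochondrial members higher and 0 lower. The cells of unnamed clusters had 67 of 78 nuclear members higher and 1 lower (background 14.8% and 49.9%) and 11 of 13 mitochondrial members lower. In each class the share of nuclear members called higher was thus above that of all genes measured in it.

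Taking all 10 classes and no minimum within a class, 28 of the 79 nuclear members were at least 25% higher in every class. They comprised 10 of 36 in complex I, among them Ndufb7, Ndufa2, Ndufc1, Ndufs5 and Ndufs6, 4 of 8 in complex III (Uqcr10, Uqcr11, Uqcrb and Uqcrh), 9 of 18 in complex IV, among them Cox4i1, Cox5a, Cox5b and Cox8a, and 5 of 17 in complex V (Atp5e, Atp5g3, Atp5j, Atp5k and Atp5mpl). Members at least 20% lower in at least 1 class were Ndufs1, Ndufs4 and Ndufa9 in complex I and the 6 scarce isoforms Cox4i2, Cox6a2, Cox6b2, Cox7a1, Cox7b2 and Ndufa4l2 in complex IV. These genes were picked out by their values. The same was not counted over all measured genes, so no background share is given.

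Ndufs1 was lower in NTD in each of the 10 classes, between −0.62 in macrophage or microglia-like cells (137 and 87.8 CPM) and −0.09 in endothelial-like cells (92.6 and 86.6 CPM), but its interval lay below 0 in 1 of the 10, the neural progenitor-like cells. As above, its direction over all kept cells depended on the scaling. Ndufs4 had a ratio between −0.34 in erythroid-like and 0.03 in endothelial-like cells. Ndufv3 was higher in all 10, between 0.13 in endothelial-like (58.7 and 64.2 CPM) and 1.11 in epithelium-like cells (42.6 and 92.7 CPM).

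Within the control library each member's CPM was compared over the 12 named classes. The 5 nuclear members with the largest ratio of the highest to the lowest class were Cox6b2, Ndufa1, Ndufs7, Ndufs8 and Ndufb7. Cox6b2 ranged from 6.71 CPM (2 UMIs, skeletal muscle-like) to 111 CPM (erythroid-like). Its lowest value is under the level of 3 counts, so no fold is given. Ndufa1, a small membrane-arm subunit on the X chromosome, ranged from 20.1 CPM in skeletal muscle-like to 68.6 CPM in erythroid-like cells (3.41-fold). Ndufs7, a core iron-sulphur subunit, ranged from 60.4 to 190 CPM between the same classes (3.15-fold), Ndufb7 from 70.5 to 181 CPM (2.57-fold), and Ndufs8 from 20.1 CPM in cardiac muscle-like to 53.7 CPM in skeletal muscle-like cells (2.67-fold). The muscle-like classes are small, with 86 skeletal and 56 cardiac control cells, and their CPM values rest on few UMIs.

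**Figure D3:**
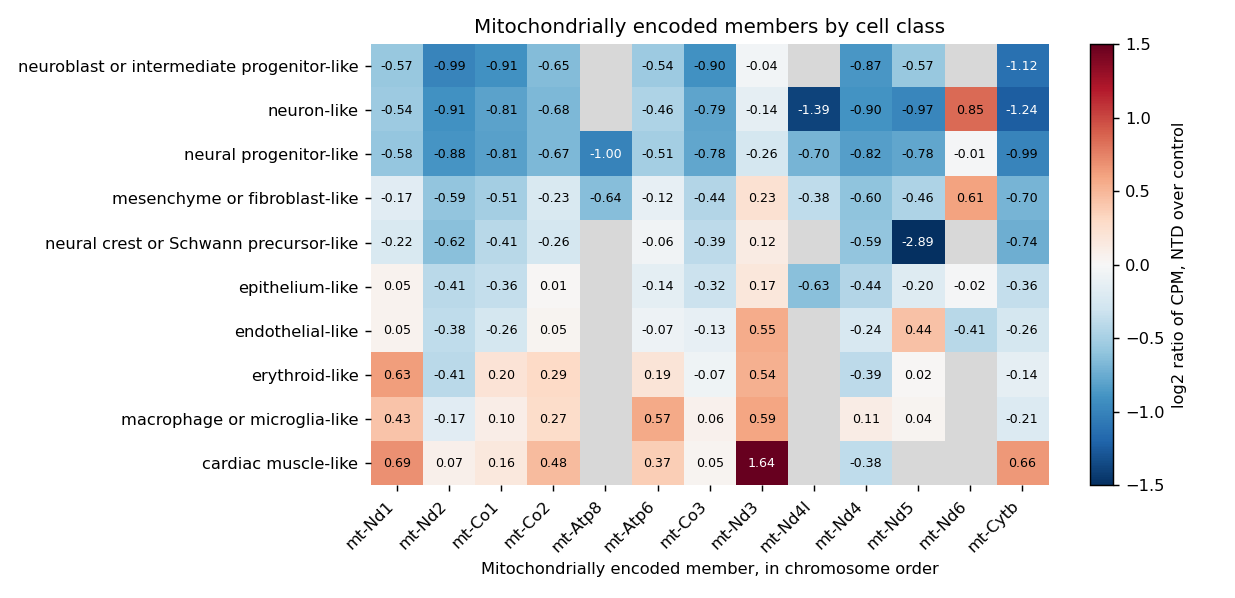
Log2 ratio of CPM, NTD over control, for each mitochondrially encoded member (columns, in chromosome order) in each of the 10 classes (rows), blue for lower and red for higher in NTD, and grey where fewer than 20 UMIs were counted over both libraries. In the 3 neural rows at the top all coloured genes but mt-Nd6 in neuron-like cells lie below 0, while mt-Nd1 and mt-Nd3 are above 0 in the 5 rows at the bottom; values beyond 1.5 in either direction share the end colours.

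Gene by gene, mt-Cytb was lower in 9 of 10 classes, down to 284 and 120 CPM in neuron-like cells (−1.24, −1.36 to −1.11), and higher in cardiac muscle-like cells (191 and 303 CPM; 0.66, 0.07 to 1.28). mt-Nd4 was at least 20% lower in 8 of 10 classes, with 275 and 147 CPM in neuron-like cells (−0.90). mt-Co3, the most counted member, measured 992 and 575 CPM in neuron-like cells (−0.79) and 1077 and 1112 CPM in cardiac muscle-like cells (0.05, −0.22 to 0.32). mt-Nd1 ranged from −0.58 in neural progenitor-like cells to 325 and 504 CPM in erythroid-like cells (0.63, 0.32 to 0.95) and 226 and 366 CPM in cardiac muscle-like cells (0.69, 0.15 to 1.253). mt-Nd3 was at least 25% higher in 4 classes and at least 20% lower in 0. With no minimum of UMIs, mt-Nd6 was at least 25% higher in 7 classes, but from few UMIs. Its interval lay above 0 in 2 of them: 22 and 58 UMIs in neuron-like cells (0.85, 0.14 to 1.64) and 86 and 104 UMIs in mesenchyme or fibroblast-like cells (0.61, 0.18 to 1.04). The rest of the 7 held fewer than 20 mt-Nd6 UMIs over both libraries, under the minimum for a call.

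Cells differ in how many UMIs they hold, and both shares differed with that number. Among all kept cells the nuclear-encoded share went from 1.59% (1500 to 2000 UMIs) to 0.755% (6000 to 10000 UMIs) in the control and from 2.40% to 1.17% in the NTD library. It was higher in NTD in each of the 7 bands that both libraries filled, with log2 ratios of 0.59 to 0.81. The mitochondrially encoded share was lower in NTD in the 6 bands up to 10000 UMIs, from 0.460% and 0.288% in the band of 1500 to 2000 UMIs (−0.67) to 0.310% and 0.281% in the band of 6000 to 10000 UMIs (−0.14). In the band from 1000 to 1500 UMIs, with 3544 control and 0 NTD cells, no comparison exists.

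Above 10000 UMIs the mitochondrially encoded share was higher in NTD, at 0.297% in 115 control and 0.465% in 115 NTD cells (0.65, 0.60 to 0.70). These cells are of different kinds in the libraries: 62 of the 115 control cells and 19 of the 115 NTD cells lay in unnamed clusters, and 5 control and 42 NTD cells were neural progenitor-like. In neural progenitor-like cells the share was lower in NTD in all 6 bands up to 10000 UMIs, for example 0.395% and 0.243% between 2000 and 2500 UMIs (−0.70), and above 10000 UMIs 0.227% in 5 control and 0.304% in 42 NTD cells. Without the 10% of cells of highest UMI total in each cluster and library, a setting added after the data were seen, the mitochondrial median was −0.68 over all kept cells and −0.84 in neural progenitor-like cells.

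**Figure D4:**
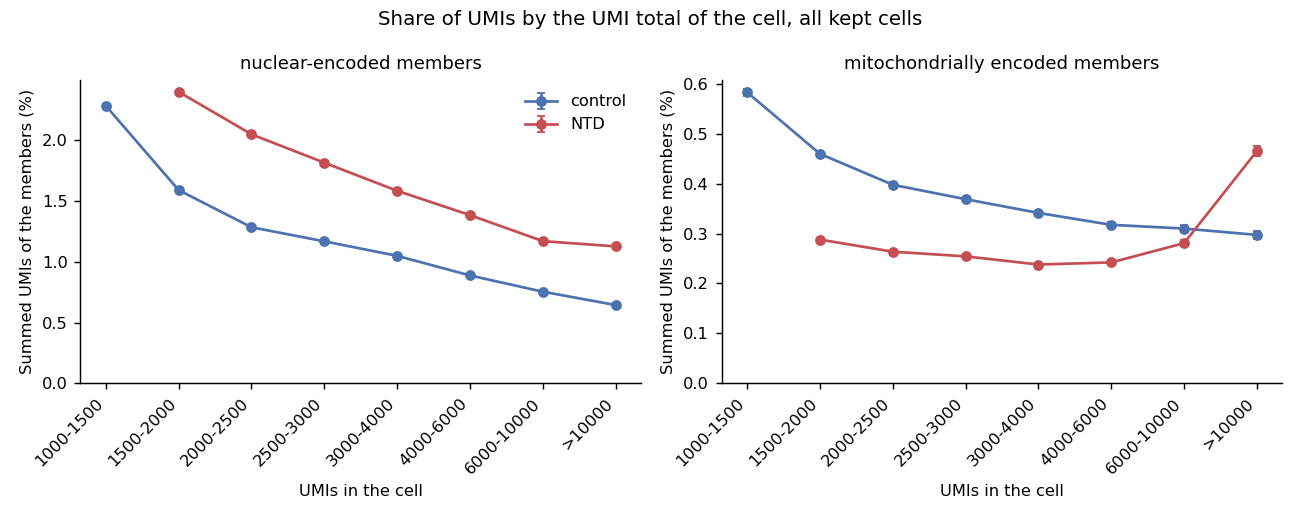
Summed UMIs of the nuclear-encoded (left) and mitochondrially encoded members (right) as a percentage of all UMIs, for kept cells binned by their UMI total, blue for control and red for NTD, with 95% counting intervals. The nuclear-encoded share is higher in NTD in every shared bin, and the mitochondrially encoded share is lower in NTD up to 10000 UMIs (0.310% against 0.281% in the last such bin) and higher above (0.297% against 0.465%).

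Nuclear-encoded members are compact genes, and in these libraries the ratio of a gene varied with its genomic span, the distance from its first to its last annotated base. The members' median span was 7.19 kb, against 23.4 kb for all measured genes in neural progenitor-like cells. Across the 78 measured nuclear members the log2 ratio and the log10 span had a Pearson r of −0.57 and a Spearman rho of −0.43, given as a description across genes that share both libraries. Within bins of like span the members stood above other genes. Under 3 kb the 15 members had a median of 0.58 and the 1085 other genes 0.11. Between 6 and 12 kb the medians were 0.52 for 29 members and −0.05 for 2258 others, and at 25 kb or more 0.04 for 4 members and −0.23 for 7540 others. The gap was present in all 5 bins and smallest in the last, where Ndufs1 and Ndufs4 lie.

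**Figure D5:**
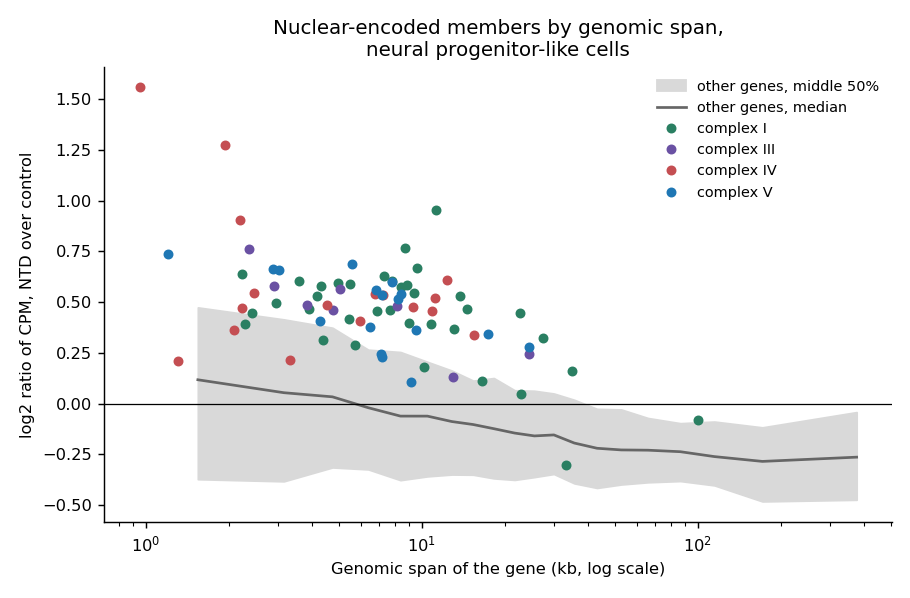
Log2 ratio of CPM, NTD over control, in neural progenitor-like cells against genomic span (kb, log scale) for the 78 measured nuclear-encoded members, coloured by complex. The grey line and band give the median and the middle 50% of other genes in 20 bins of span. Most members lie above the band. Several lie inside it, among them Atp5a1 (0.11), Cox6a1 (0.22) and Ndufs1 (−0.30), and Ndufs4 (−0.08) lies at its upper edge.

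Other genes of the respiratory pathway were followed in lists drawn up with earlier results of these data known, here in neural progenitor-like cells. The 4 genes of complex II, which feeds electrons from succinate, had a median of 0.14 with 0 of 4 past the margin in either direction: Sdha −0.23, Sdhb 0.07, Sdhc 0.20 and Sdhd 0.20. Cytochrome c (Cycs), the carrier between complexes III and IV, had a ratio of 0.45 and Cyc1 of complex III 0.17. Ndufab1, the acyl carrier protein in complex I, had a ratio of 0.53, near the median of the complex I members. The 12 measured genes of coenzyme Q synthesis had a median of −0.17, with 1 higher and 2 lower by the margins. The list of complex I assembly factors, in which the subunit Ndufab1 was also counted, had a median of −0.01. In it 3 of 16 were higher, Ndufab1 among them, and 2 lower. Assembly factors of complexes III, IV and V had a median of 0.22 (9 of 31 higher, 6 lower), with Taco1, the translational activator of mt-Co1, at 74.9 and 33.9 CPM (−1.14, −1.34 to −0.95). The background in these cells was the 12.6% higher and 31.2% lower given above. Most of these genes are longer than the members (7.19 kb). The median span was 20.7 kb for complex II, 20.2 kb for coenzyme Q synthesis, and 12.1 and 11.3 kb for the 2 assembly lists.

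Genes that express the mitochondrial chromosome did not share 1 direction. Of 31 such genes 5 were at least 25% higher and 8 lower, with a median of −0.09. Among all measured genes in neural progenitor-like cells 12.6% were higher and 31.2% lower, so these counts lie near the background. Tfam, which packages mitochondrial DNA and opens its promoters, measured 37.0 and 44.4 CPM (0.26, 0.03 to 0.50), while Polrmt, the mitochondrial RNA polymerase, measured 20.8 and 12.6 CPM (−0.73, −1.07 to −0.37). Slirp, which with Lrpprc stabilises mitochondrial messengers, measured 58.0 and 104 CPM (0.84, 0.66 to 1.02), and Lrpprc itself 60.01 and 54.8 CPM (−0.13, −0.32 to 0.06). Among 12 measured regulators of nuclear respiratory genes 0 were higher and 3 lower by the margins (median −0.14), beside the same background of 12.6% and 31.2%. The regulators are long genes, with a median span of 37.6 kb, and other genes of 25 kb or more had a median of −0.23. Nrf1, which encodes the factor of the NRF-1 motif, measured 312 and 255 CPM (−0.29, −0.37 to −0.20), Gabpa, an ETS factor, 25.3 and 29.9 CPM (0.24, −0.04 to 0.53), Pprc1 38.3 and 24.2 CPM (−0.66) and Ppargc1a 11.5 and 10.1 CPM (−0.19). These genes were named after their values were seen.

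Among lists outside the chain, the nuclear-encoded respiratory members were not alone in standing above the background (12.6% higher and 31.2% lower). The 80 measured cytosolic ribosomal protein genes had a median of 0.59 with 74 higher and 0 lower, the 78 mitochondrial ribosomal protein genes a median of 0.23 with 24 higher and 0 lower, and the 35 measured proteasome genes a median of 0.26 with 14 higher and 1 lower. The cytosolic ribosomal genes are shorter than the members (median span 3.33 kb), and the mitochondrial ribosomal genes of like span (7.90 kb). Genes of mitochondrial protein import had a median of 0.29 with 12 of 25 higher and 2 lower, glycolysis 0.16 with 6 of 22 higher and 2 lower, the tricarboxylic acid cycle −0.01 with 0 of 18 higher and 2 lower, and the mitochondrial stress response 0.05 with 1 of 14 higher (Hspe1, the mitochondrial co-chaperonin, at 0.54) and 0 lower. Median spans of these lists were, in that order, 6.50, 18.8, 24.4 and 11.5 kb.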

How the data were processed

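Single-cell RNA was counted by the authors in Cell Ranger (version 7.0.1 per the file headers), and STAR and mm10 are named in the submitters' processing notes. The deposited files hold raw UMI counts per gene and barcode. Which annotation was used, whether intronic reads counted and how cells were called is not stated in the labels or headers.

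Barcodes with at least 500 genes, 1000 UMIs and at most 10% mitochondrial UMIs were kept, which removed 0. The automatic doublet threshold of Scrublet gave 0 calls in one setting and 7181 control calls in another, so the expected share of highest scores was removed instead, 2759 control (14.9%) and 2905 NTD (15.2%) barcodes. That choice was made after the data were seen. Cells were clustered without the members (scanpy 1.11.5, leidenalg 0.10.2, resolution 1.0, 2000 variable genes, 30 components, 15 neighbours). The rule that named 12 classes from 18 marker lists, leaving 6 of 26 clusters unnamed, was also set after the clusters were seen. It asked for at least 3 markers found in at least 10% of cells and 1.25-fold higher, with a lead of 2. In addition, no other class could have more markers among the 10 leading genes of the cluster. Cluster 9, with 9 mesenchyme markers against 3 of the next class, thus stayed unnamed. The members and all gene lists were chosen with earlier results of these data known.

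UMIs were summed per class and library and given as CPM. A member was called higher or lower past 1.25-fold (25% above or 20% below the control level) where both libraries together held at least 20 UMIs of it. Intervals are exact: Poisson for a CPM, conditional binomial for a ratio and Clopper-Pearson for a share, all at 95%. Total kept UMIs were those of 15813 control and 16151 NTD cells. The ratio and interval code was tested on simulated data. With 1 library a group, edgeR 4.0.16 served for TMM scaling and no test was run.

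Members named are all 13 mitochondrial genes, in each complex the 3 highest and 3 lowest ratios in neural progenitor-like cells among members of at least 50 CPM in either library, the isoforms, and the 5 nuclear members of widest range over control classes. Other names were chosen after values were seen. One member, counted in the sums, is not reported by name here. Genomic spans came from GENCODE M21, which matched 32158 of 32285 features (99.6%). Promoters came from RefSeq. Alternatives covered scaling, totals, averaging per cell, cell and gene filters, doublets, clusters, resolution and the fold.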

Additional observations from a re-analysis of the deposited data

Results flagged for a closer look

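The mitochondrially encoded share was higher in NTD in 3 of 10 classes and lower in 7, and with 1 library a group none of these differences between classes was tested. The log2 ratio of the summed share was 0.28 in cardiac muscle-like cells, 0.20 in macrophage or microglia-like cells and 0.084 in erythroid-like cells. The median share per cell was 0.320% and 0.352% in the cardiac muscle-like cells, but 0.375% and 0.360% in the macrophage or microglia-like cells, where the summed and the per-cell values thus differ in direction. Without the 10% of cells of highest UMI total the ratios were 0.22, 0.09 and −0.03 in the order above, and the intervals of the last 2 held 0.

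Clusters 6 and 9 also stood on the higher side. Cluster 6, mesenchyme or fibroblast-like, with 1502 control and 395 NTD cells, had shares of 0.350% and 0.440% (log2 0.33). Its 10% of cells with the highest UMI totals had 0.334% and 0.685% (1.03) and its other cells 0.354% and 0.338% (−0.07). Cluster 9, unnamed, with Wt1, Gata4 and Gata6 among its leading genes and 1377 control and 78 NTD cells, had 0.370% and 0.495% (0.42), with 0.319% and 0.649% (1.03) in its top 10% and 0.383% and 0.428% (0.16) in the others.

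Cells above 10000 UMIs, 115 in each library, had a log2 ratio of 0.65 for the mitochondrially encoded share, against negative ratios in all 6 shared bands below. There mt-Nd6 had 1.35, mt-Nd3 1.01, mt-Nd1 0.92 and mt-Cytb 0.49. Without the top 10% of each cluster, a setting added after the data were seen, the share was higher in NTD in 3 of 23 clusters and lower in 20. The nuclear-encoded share was higher in 23 of 23 both in that 10% and without it.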

How the results depend on the processing

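No paired analysis was possible because each group had 1 library, and for the same reason no library could be left out. None of the 4 medians reversed under any alternative run; the causes of the differences given here were not tested. Of the members named, 7 changed sign in some setting. Over all kept cells Ndufs1 (−0.24) was 0.001 by TMM and 0.006 against like span. Ndufs4 (−0.05) was 0.20 and 0.32 in these settings, and 0.03 with totals free of ribosomal protein, haemoglobin and mitochondrial genes. In all kept cells mt-Nd3 (−0.02) was 0.01 to 0.23 in 9 settings and mt-Atp8 (−0.29) 0.10 against like level. In neural progenitor-like cells Ndufs4 (−0.08) was 0.07 by TMM, 0.18 against like span and 0.02 against like level. In the same cells mt-Nd6 (−0.01) was 0.01 to 0.28 in 6 settings, and at resolution 2.0 Cox6b2 (0.21) was −0.12 and Ndufv2 (0.05) −0.02. Over all kept cells the nuclear median log2 ratio (0.57) was 0.81 by TMM, 0.65 with totals free of ribosomal protein, haemoglobin and mitochondrial genes, 0.44 as a mean per cell, 0.60 with doublets kept, 0.73 with a stricter cell filter (9001 control and 11704 NTD cells), 0.75 with a matched floor of 1589 UMIs (which dropped 4106 control and 0 NTD cells), 0.56 without the 10% of highest UMI total (added after the data were seen), 0.66 without the 6 clusters mostly of one library, 0.63 without the 2 low-UMI clusters, and 0.68 and 0.63 against genes of like span and like level. The mitochondrial median (−0.58) was, in that order, −0.34, −0.50, −0.71, −0.59, −0.50, −0.51 and −0.68, then −0.55 without the low-UMI clusters and −0.55 and −0.44 against like span and level. At a fold of 1.5, 35 members were higher (66 at the reported margin) and 6 lower (10). In neural progenitor-like cells the nuclear median (0.48) was 0.63 by TMM, 0.54 with the other totals, 0.49 with doublets kept, 0.57 with the stricter filter, 0.55 with the floor, 0.51 and 0.57 against like span and level and 0.63 at resolution 0.5. The mitochondrial median there (−0.78) was −0.63 by TMM, −0.72 with the other totals, −0.70 with the stricter filter, −0.75 with the floor, −0.84 without the 10% of highest UMI total, −0.74 with at least 100 UMIs, −0.89 and −0.64 against like span and level and −0.69 at resolution 0.5. Of the values of the named members under the alternatives, 1008 lay within 0.1 (log2) of the reported value and 440 did not. Part of this tally was fixed in advance. Settings that changed only the UMI minimum or the fold left the ratios as reported. TMM added 0.24 over all kept cells and 0.15 in neural progenitor-like cells to every gene, and the other totals likewise added a constant. The tally is therefore not a measure of stability. Depth limits mt-Atp8, mt-Nd4l, mt-Nd6 and the scarce isoforms most.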
